A study of Mus musculus with 30 samples.

Results

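The kidney of the adult mouse was compared with 14 other tissues on two-colour oligonucleotide arrays. Kidney had 2 of the 30 arrays, labelled replicates 1 and 2, and each of the other tissues (liver, stomach, small intestine, large intestine, bladder, lung, heart, skeletal muscle, bone, fat, skin, eyes, brain cortex and cerebellum) had 2 as well. All mice were adult C57BL/6 males of 28 weeks per the labels, which name no treatment and no altered gene. Tissue RNA was labelled with Cy3 and hybridised together with a common reference in Cy5, a pool of RNA from mouse cell lines with added embryonic stem cell RNA, and a value is log2(Cy3/Cy5), the tissue over that reference. The reference includes a kidney-derived line, but it is the same on all arrays and therefore drops out of a difference between tissues. For most tissues the series description gives separate animals as the source of the 2 arrays; for bone and fat it names a single replication, so what their spread covers is not certain. The RNA came from whole pieces of organ. A difference in such RNA can reflect fewer cells of a type or less RNA per cell, and these cannot be told apart here.

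The kidney filters blood in the glomerulus, where podocytes and a basement membrane of collagen IV form the barrier. The proximal tubule then takes back most of the filtered solutes through transporters on a brush border, burns fatty acids to pay for it, and shares much of its enzyme equipment with the liver. Further along, the thick ascending limb, the distal tubule and the collecting duct set the salt, acid and water content of urine, while juxtaglomerular cells release renin, the enzyme that starts the angiotensin cascade.

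Upstream sequences of 3 genes are shown first, because these genes mark different compartments of the kidney: Pkhd1 (the ciliary protein fibrocystin of tubule and duct cells), Slc23a3 (a proximal tubule member of the nucleobase and ascorbate transporter family) and Ren1 (renin). Each is the stretch of 250 bases before the transcript start that the RefSeq promoter table (GRCm38.p6) uses, read 5′ to 3′ on the strand of the gene. They lie at chr1:20618058-20618307 (minus strand), chr1:75133891-75134140 (minus strand) and chr1:133350424-133350673 (plus strand). For Ren1 that start is the annotated start of the gene. The annotated genes Pkhd1 and Slc23a3 begin further upstream, at 20618082 and 75135223 on the minus strand, so the stretch of Pkhd1 overlaps the gene at its end and that of Slc23a3 lies wholly inside the gene, before an inner start. Capitals mark GTTAAT, the core of the site of the renal and hepatic factor HNF1, in Pkhd1 and Slc23a3, and the TATA box TATAAA in Ren1.
Pkhd1: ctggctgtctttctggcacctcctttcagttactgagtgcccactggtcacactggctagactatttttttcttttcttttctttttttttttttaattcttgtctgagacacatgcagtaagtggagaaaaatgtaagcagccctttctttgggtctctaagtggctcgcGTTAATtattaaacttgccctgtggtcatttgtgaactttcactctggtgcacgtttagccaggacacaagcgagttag
Slc23a3: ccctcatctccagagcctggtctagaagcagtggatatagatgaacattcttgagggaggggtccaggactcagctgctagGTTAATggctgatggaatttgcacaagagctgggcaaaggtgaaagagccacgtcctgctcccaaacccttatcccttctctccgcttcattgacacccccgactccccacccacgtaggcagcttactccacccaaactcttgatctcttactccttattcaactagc
Ren1: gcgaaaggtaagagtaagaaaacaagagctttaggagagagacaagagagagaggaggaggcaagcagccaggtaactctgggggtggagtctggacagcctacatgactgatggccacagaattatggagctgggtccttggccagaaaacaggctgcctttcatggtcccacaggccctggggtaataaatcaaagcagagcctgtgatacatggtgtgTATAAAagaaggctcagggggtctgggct
Counted from the starts of that table, GTTAAT began 79 bases upstream in Pkhd1 and 169 bases upstream in Slc23a3, where it lies within the annotated gene, and the TATA box began 29 bases upstream in Ren1. A match of letters is a description of the sequence and no evidence that a factor binds it.

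The pair of kidney arrays was close: their correlation over 21025 probes was 0.985, and the median SD between them was 0.10 on the log2 scale. Median Cy3 signals ran from 85.7 to 175 scanner units over the arrays, with 114 and 128 in kidney, and 53.9 to 76.9% of probes were well above background, with 60.5 and 57.6% in kidney. Kidney and bladder were alone together on their slide, so a slide effect cannot be told apart from kidney in the comparison with the other 13 tissues; kidney against bladder is the comparison within a slide. Fat and large intestine stood apart in how far their own arrays differed (correlation 0.671 and 0.798, against 0.848 in bone and 0.947 or more elsewhere). Symbols were at hand for 5049 of the probes (24.0%), and chromosome 1 is over-represented among them: it holds 926 of the 4682 symbols that have a chromosome (19.8%), 47 of the 152 named genes higher in kidney and 30 of the 58 lower. The named genes are thus a sample of the kidney's genes shaped by which probes have names.

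The first question was which genes are high or low in kidney. A probe was called higher or lower in kidney when its mean differed from the mean of the other 14 tissues by at least 2 on the log2 scale, which is 4-fold, at an adjusted p under 0.05 (limma, Benjamini-Hochberg). By that rule 885 of 21025 probes (4.21%) were higher in kidney and 439 (2.09%) were lower. Without the threshold on size, 3728 (17.7%) were higher and 5051 (24%) lower at the same adjusted p. The median difference of all probes was -0.11, that of the higher probes 2.95 and that of the lower probes -2.49, and the widest single differences were 9.18 and -6.25, both on probes without a symbol. Both kidney arrays lay above each of the 28 other arrays for 348 of the 885 higher probes (39.3%), against 648 (3.08%) of all probes, and below each of them for 118 of the 439 lower probes (26.9%), against 331 (1.57%) of all.

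The count of lower probes depended on the processing more than the count of higher probes did. With the median in place of loess it was 258, beside 877 higher probes, so that higher probes made up 77.3% of the calls rather than 66.8%. With the signals processed by the scanner software it was 953, beside 1292, with higher probes at 57.6% of the calls. Of the 439 lower probes, 107 were not well above background on either kidney array, so kidney has only a bound there, and 5 of the 885 higher probes were not well above background on any other array.

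**Figure D1:**
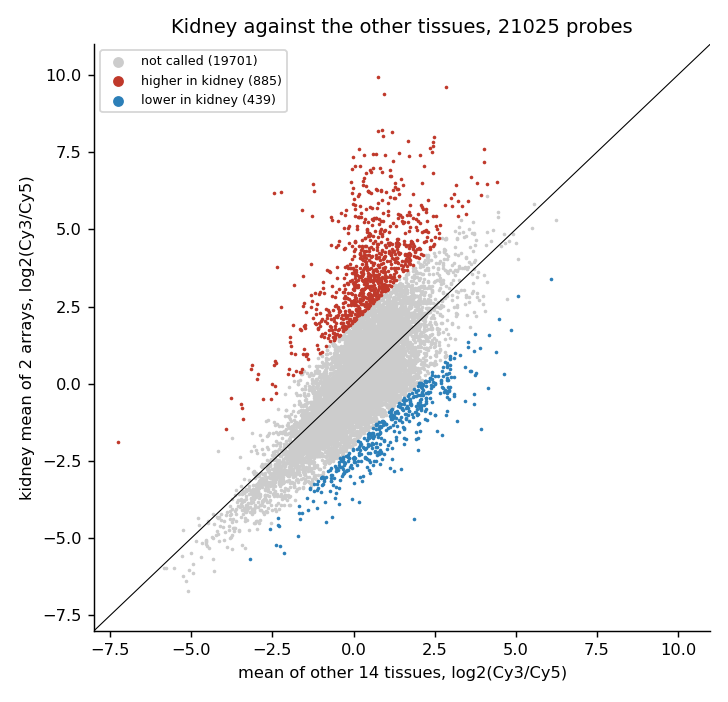
Each point is 1 of 21025 probes, with its mean over 14 other tissues on the horizontal axis and its mean over 2 kidney arrays on the vertical axis, both as log2(Cy3/Cy5). Red points (885) were higher and blue points (439) lower in kidney; the higher ones reach 9.18 above the other tissues, the lower ones 6.25 below.

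Renin RNA stood out on the kidney arrays. Ren1 read 3.29 and 3.74 on the kidney arrays and between -0.16 and 0.66 (median 0.07) on the other 28 arrays. The groups do not overlap, and the array nearest to kidney was skeletal muscle replicate 2. The difference was 3.41 ± 0.12 (SE), a fold of 10.7, at an adjusted p of 5.3e-14 (limma), and against the next tissue, skeletal muscle, it was 3.14. Against bladder, on the same slide, it was 3.48 (adjusted p = 6e-12, limma). The other named genes of juxtaglomerular cells and the macula densa were not called: Pappa2, a protease of macula densa cells, read 0.52 and 0.26 in kidney (difference 0.29, adjusted p 0.017), and 4 arrays of other tissues lay above the lower kidney array. Without kidney replicate 1 its difference was 0.16 (adjusted p 0.395, limma), and with median centring 0.12 (adjusted p 0.611). 2310005C01Rik (Nos1, the neuronal nitric oxide synthase, also of the macula densa) went the other way, at -1.70 and -1.91 and a difference of -1.71 (adjusted p 3.2e-05, limma), and Ptgs2, a cyclooxygenase that was not well above background in kidney, differed by -1.02 (adjusted p 0.26). The median of the 4 was -0.36.

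Col4a3 and Col4a4 encode chains of collagen IV that the mature glomerular basement membrane is built from. Col4a4 read 2.00 and 1.91 in kidney and -2.01 to 0.74 (median -0.80) elsewhere, and it was above each of the other tissues; its difference was 2.77 ± 0.22 (adjusted p 7.6e-09, limma). Col4a3 read 3.64 and 3.23 in kidney, 3.16 and 3.0 in lung, 3.07 and 3.0 in the eyes, and -0.06 to 1.51 in the remaining 12 tissues. The ranges do not overlap, yet kidney and lung differed by only 0.36 (adjusted p 0.32, limma), so kidney stands out for Col4a3 together with lung and eyes.

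**Figure D2:**
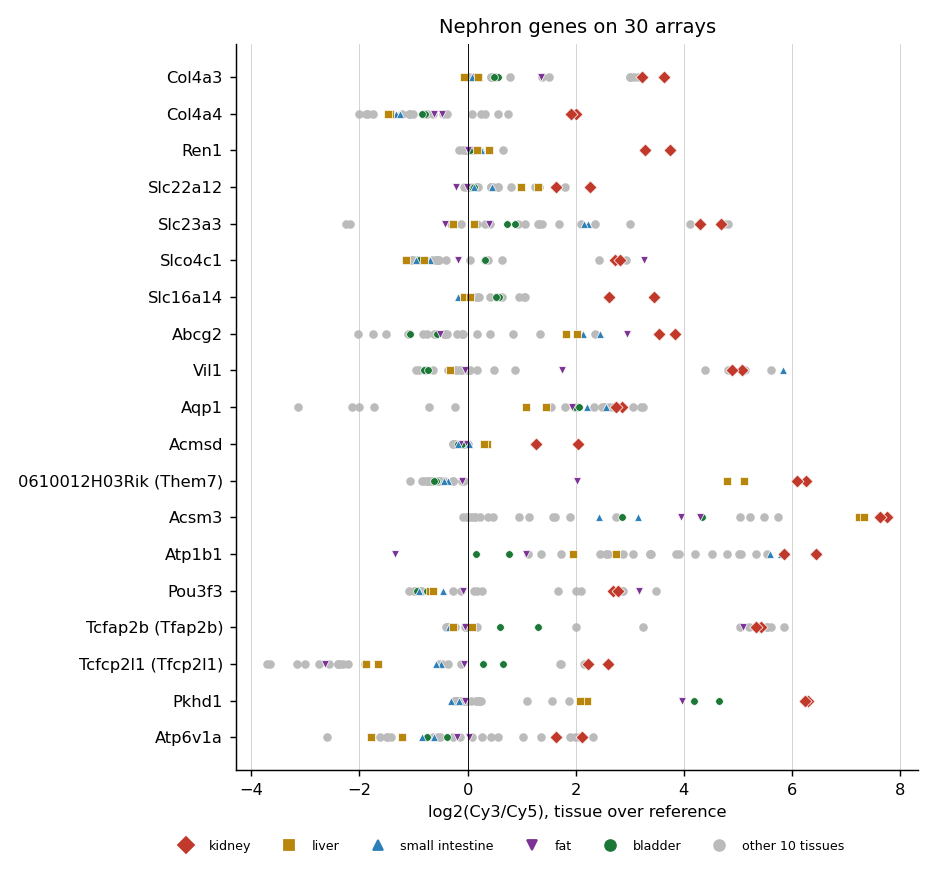
Values of nephron genes on 30 arrays, as log2(Cy3/Cy5), ordered roughly from glomerulus to collecting duct; each symbol is 1 array. Ren1, Col4a4, Slc16a14 and Acmsd show the kidney diamonds to the right of every other array, while Vil1, Slc23a3, Tcfap2b and Atp6v1a overlap with other tissues.

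Of 10 proximal tubule uptake and brush border genes, 5 were higher in kidney and 0 lower: Vil1, Abcg2, Slc23a3, Slco4c1 and Slc16a14. Over all symbols tested 3.02% were higher and 1.15% lower, and the median of the list was 2.17, against -0.11 over all probes. Of the 5, only Slc16a14 was above each other tissue. Vil1, the actin bundler of microvilli, read 5.07 and 4.90 in kidney, among the values of small intestine (5.09 and 5.84), large intestine (5.61 and 5.12) and stomach (4.83 and 4.39), while bladder was at -0.81 and -0.74. Slc23a3, whose sequence is shown above, read 4.31 and 4.69, below stomach at 4.75 and 4.81 and above large intestine at 3.0 and 4.11; its difference from the mean of the other tissues was 3.41 ± 0.34 (adjusted p 1.6e-07, limma).

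Slc16a14, a monocarboxylate transporter family member, was the uptake gene with the clearest gap to every other tissue. It read 3.45 and 2.61 in kidney against -0.18 to 1.07 (median 0.06) elsewhere, a difference of 2.80 ± 0.15 (adjusted p 4.7e-11, limma). Its kidney arrays differed from each other by more than those of most genes. Abcg2, an efflux pump that carries urate among other substrates, read 3.53 and 3.84 in kidney and -2.03 to 2.95 (median -0.41) elsewhere. Its difference was 3.60 ± 0.66 (adjusted p 0.00023, limma), and that from small intestine, the next tissue, was 1.39 ± 0.91 and did not pass (adjusted p 0.27). The highest other array was fat replicate 1.

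Transporters for which the proximal tubule is known did not all pass. Slc22a12, the urate and anion exchanger URAT1, read 1.64 and 2.26 in kidney and -0.21 to 1.81 (median 0.17) elsewhere; the difference of 1.53 (adjusted p 0.00062, limma) is under the 4-fold threshold. Aqp1, the water channel of proximal tubule and of capillary endothelium, read 2.85 and 2.75 in kidney. It had rank 3 of 15, with lung at a mean of 3.14. Its difference of 1.43 (adjusted p 7.1e-05, limma) was also under the 4-fold threshold, so it was called neither way. With the Cy3 level alone in place of the ratio, 7 of the 10 uptake genes were called higher, Slc22a12 and Aqp1 among them. The efflux pumps Abcc4, Abcb1b and Abcb1a differed by 1.33, 0.11 and -0.98 (adjusted p 0.0064 for Abcb1a, limma). With slide as a random block the adjusted p of Abcb1a was 0.109 (limma), and without kidney replicate 1 its difference was -0.75. Slco4c1, a basolateral organic anion carrier, was higher by 2.96 ± 0.47 (adjusted p 4.7e-05, limma). Lung was at almost the same level for Slco4c1 (2.68 against 2.72 and 2.82 on the kidney arrays).

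The 6 genes of proximal tubule metabolism gave 4 higher and 0 lower, against 3.02% and 1.15% of all symbols, with a median of 2.77. 0610012H03Rik (now Them7, an acyl-CoA thioesterase family member) read 6.26 and 6.09 in kidney, 4.80 or more on both liver arrays, 2.03 on fat replicate 1 and below 0 on the other 25 arrays. It was higher by 6.23 ± 0.28, a fold of 74.9 (adjusted p 2.8e-12, limma), and above liver by 1.22 (adjusted p 0.023). Acsm3, a medium-chain acyl-CoA synthetase, read 7.77 and 7.64 against 7.29 in liver, a gap of 0.41 ± 0.36 that did not pass (adjusted p 0.46), and its difference from the mean of the others was 5.26 ± 0.26. Acmsd, which turns the kynurenine pathway of tryptophan away from NAD synthesis, read 1.28 and 2.05 in kidney and was well above background on 0 of the 28 other arrays. The ratio, in which an offset of 50 scanner units is added to both channels, understates such a gap. On the Cy3 level after loess and Aquantile, set against the lowest signals well above background on the other arrays, kidney was at least 3.92-fold higher (adjusted p 2.8e-09 for a ratio difference of 1.76, limma), which is above each of the other tissues although the ratio missed the 4-fold rule. The same Cy3 scale gives the other lower bounds below. The dyes were not exchanged, but all tissue RNA carried Cy3, so a dye effect that is the same on all arrays drops out of these bounds. A dye effect that differs between arrays was not tested.

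In the thick ascending limb and distal tubule list 3 of 4 genes were higher, against 3.02% of all symbols, and each of the 3 was also high in another tissue. Atp1b1, the beta subunit of the sodium pump, read 6.44 and 5.85 in kidney and 5.70 in small intestine, with a difference of 3.04 ± 0.43 (adjusted p 1.4e-05, limma). Pou3f3, a POU factor needed for the loop of Henle and active in cortical neurons, read 2.69 and 2.78 in kidney and 3.17 in brain cortex. Tcfap2b (Tfap2b), an AP-2 factor of the distal nephron, read 5.43 and 5.34 in kidney, 5.85 and 5.61 in skin and 5.54 and 5.55 in the eyes; it was higher by 3.90 ± 0.66 (adjusted p 0.0001) than the mean of the others.

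Tcfcp2l1 (Tfcp2l1), a collecting duct factor, was the only called gene of the 3 in that list (3.02% of all symbols were higher), at 2.61 and 2.22 in kidney and 2.17 in large intestine, with a difference of 3.56 ± 0.36 (adjusted p 2.3e-07, limma). Of 8 proton pump and intercalated cell genes 1 was called, Atp6v1a, the catalytic subunit of the V-ATPase, at 1.63 and 2.12 and a difference of 2.04 ± 0.29. Brain cortex (2.19) was above kidney for it, and 6 of the 8 genes were higher in kidney at an adjusted p under 0.05, against 17.7% of all probes, with a median difference of 0.89. With slide as a random block Atp6v1e1 and Atp6v1h no longer passed (adjusted p 0.105 and 0.0700, limma), Atp6v1h did not pass without kidney replicate 2 either (0.0754), and on the arrays of the kidney scan day the median was 0.57 and 0 of the 8 were called. The probe of Atp6v1g3, the subunit of intercalated cells, was well above background on 0 of 30 arrays and gave no measurement (0.08 and -0.07 in kidney).

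Over the 7 nephron lists together, 17 of 38 genes (44.7%) were higher in kidney and 0 were lower, against 152 (3.02%) and 58 (1.15%) of the 5029 symbols tested. Kidney was the tissue with the highest mean for 15 of the 38, against 234 of the 5029 symbols. It was above each other tissue for 5 (Ren1, Col4a4, Slc16a14, Acmsd and 0610012H03Rik), against 37 of the 5029 symbols. Of the kidney's own markers, most were not named in the symbols used here (Umod, Slc12a1, Aqp2, Lrp2 and Slc34a1 among them), so they were not analysed here.

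Beyond renin, the renin-angiotensin list of 5 had Agtr1a as its second called gene, against 3.02% of all symbols. Agtr1a, the main angiotensin II receptor of the mouse, read 4.78 and 5.14 in kidney, 5.94 and 5.62 in liver and 5.38 and 5.34 in heart, and no other tissue passed 3.17. It was higher by 3.25 ± 0.37 than the mean of the others (adjusted p 9.7e-07, limma). Agtrap, a protein that binds that receptor, was highest in kidney at 2.37 and 2.19 but differed by 1.44 only, and Ace, the converting enzyme, differed by 0.85 (adjusted p 0.009) with small intestine at 3.22. The adjusted p of Ace rose past 0.05 when either kidney array was left out (0.101 and 0.0711) and with slide as a random block (0.139).

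Of 4 genes in the kidney development list Pkhd1 was higher and Eya1 lower, against 3.02% and 1.15% of all symbols. Pkhd1 encodes the ciliary protein fibrocystin rather than a regulator, and no other gene of the list was called higher. Pkhd1, the gene of recessive polycystic kidney disease, read 6.31 and 6.24 in kidney, 4.20 and 4.64 in bladder, 3.97 and -0.05 on the fat arrays, and -0.30 to 2.21 on the remaining 24 arrays. Its difference was 5.54 ± 0.51, a fold of 46.6 (adjusted p 7.3e-08, limma), and that from bladder was 1.85 (adjusted p 0.051). Leaving out either fat array brought it above each other tissue. Eya1, a phosphatase and cofactor of the early kidney, read -2.65 and -2.75, was not well above background in kidney, and was at least 5.89-fold lower there (adjusted p 1.2e-09), with skeletal muscle at 3.30.

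The 14 named genes that lead among those with both kidney arrays above all 28 others span differences of 3.60 to 7.10. 1700011H14Rik (Ccdc198 in RefSeq) leads: it read 8.11 and 7.91 in kidney, 7.04 and 0.10 on the fat arrays, and from -0.19 to 5.12 on the other 26. The difference was 7.10 ± 0.96, a fold of 138 (adjusted p 7.8e-06, limma). Glb1l (a beta-galactosidase relative), 4930502E18Rik (Ct55) and B3gat2 (a glucuronyltransferase) are cases with a wide gap to the next tissue: their kidney arrays read 4.23 and 4.15, 3.48 and 4.13, and 4.40 and 4.10. The next tissues were fat at 2.18, skin at 0.52 and brain cortex at 2.05, and the gaps of 2.00, 3.29 and 2.21 all passed (adjusted p 2.1e-08, 4.9e-11 and 7.1e-09, limma).

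The remaining leading genes were closer to a second tissue. 2810003C17Rik (Aif1l) read 2.48 and 2.50 in kidney and 1.03 in skin, with a median of -2.48 over the other 28 arrays. 1700016C15Rik read 5.22 and 4.87 with small intestine at 3.68, and 4833409A17Rik (Pyroxd2) 3.24 and 3.07 with liver at 1.83; these 3 were above each other tissue. For 6332401O19Rik (Tmem229a, next to brain cortex at 6.60), 1810022C23Rik (Eci3, next to small intestine at 6.04) and 4931406C07Rik (next to liver at 4.64), the gaps to that tissue were 0.79 ± 0.34, 0.27 ± 0.25 and 0.83 ± 0.60 (SE) and did not pass (adjusted p 0.063, 0.48 and 0.36, limma).

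**Figure D3:**
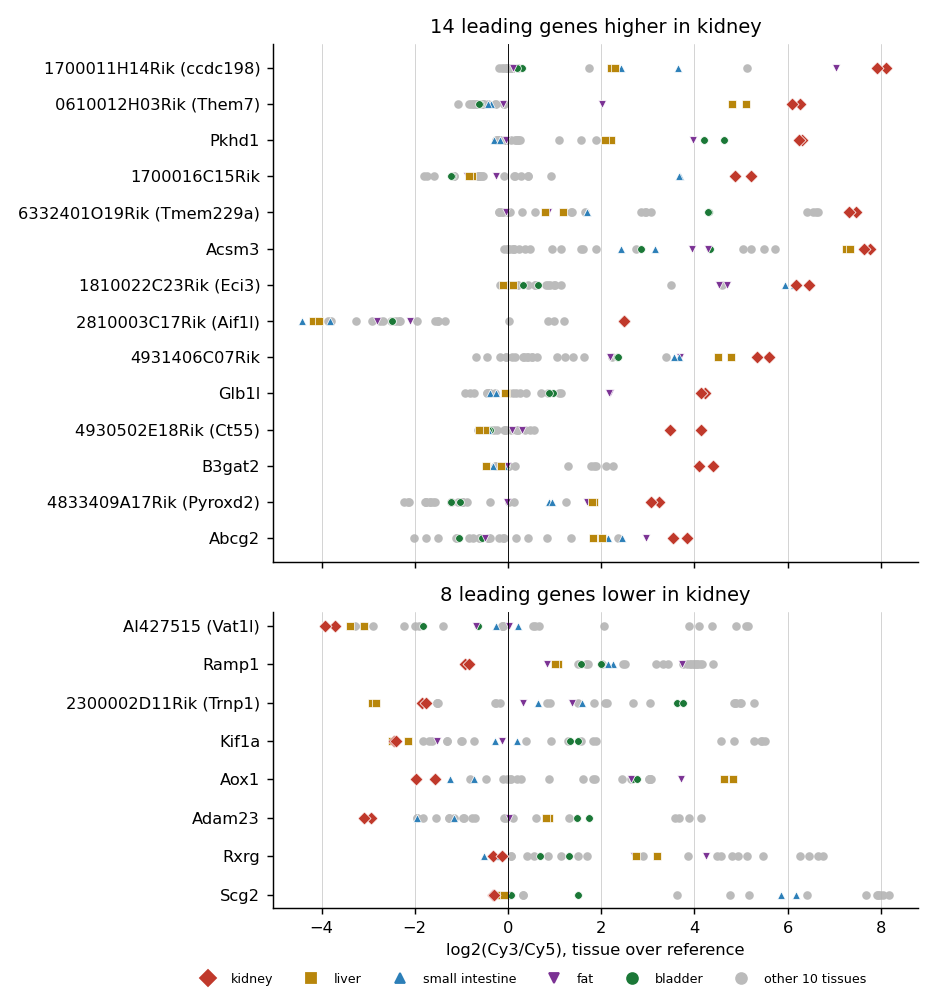
Values of the 14 leading genes higher in kidney (upper panel) and the 8 leading genes lower in kidney (lower panel) as log2(Cy3/Cy5); each symbol is 1 of 30 arrays. The purple triangles far apart in the top row are the fat arrays of 1700011H14Rik, at 7.04 and 0.10.

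The fat arrays differed from each other on part of these genes. Fat replicate 1 was above fat replicate 2 by more than 2 on 175 of the 885 higher probes (19.8%), against 1092 of all probes (5.20%), and below it by that much on 4; the medians over the 885 probes were 0.81 and 0.00. On the large intestine arrays the same count was 67 (7.57%, against 3.44% of all probes). The fat gap differed from gene to gene, and some leading genes were high on both fat arrays, such as 1810022C23Rik (4.70 and 4.52) and Acsm3 (4.29 and 3.96). On fat replicates 1 and 2 Tcfap2b read 5.10 and -0.05, Abcg2 2.95 and -0.50 and Slco4c1 3.27 and -0.17, whereas Spp2 read -0.07 and -0.02 and Acot12 0.09 and 0.02. The part of the fat and large intestine arrays in the kidney comparison can be measured by leaving them out: without any single array the number of higher probes stayed between 868 and 897, and the number above each other tissue between 223 and 261, the latter without fat replicate 1. Without all 4 arrays of fat and large intestine the numbers were 910 higher, 479 lower and 294 above each other tissue. Without fat replicate 2, 3 named genes (1700011H14Rik, Acox3 and Tmbim4) were no longer above each other tissue.

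Enzymes of fatty acid and amino acid breakdown gave the highest counts of genes higher in kidney outside the nephron lists. In the list for fatty acid oxidation and acyl-CoA metabolism 12 of 48 genes were higher and 1 (Acsl6, a long-chain acyl-CoA synthetase of brain and muscle) lower, with a median of 1.17; at an adjusted p under 0.05 alone, 36 were higher and 3 lower. Over all symbols 3.02% were higher and 1.15% lower, and at the adjusted p alone 17.7% and 24% of all probes. Kidney had the highest mean of all tissues for 14 of the 48 genes and was above each other tissue for 1. Over all symbols tested these counts were 234 and 37 of 5029. Acot12, an acetyl-CoA hydrolase, read 7.22 and 7.60 in kidney, 7.59 and 6.81 in liver, 5.17 and 5.87 in small intestine and between -0.13 and 0.30 on the other 24 arrays. It was higher by 6.44 ± 0.17, a fold of 86.7 (adjusted p 5.6e-16, limma). Pecr, a peroxisomal enoyl-CoA reductase, and Acad10, an acyl-CoA dehydrogenase family member, were higher by 3.79 and 2.37. Acat1, which splits acetoacetyl-CoA, was higher by 2.01, just over the threshold, and its second probe gave 1.95.

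Of 23 genes of amino acid, urea and glutamine metabolism 9 were higher and 0 lower, with a median of 1.09, against the same background. Gcdh, the glutaryl-CoA dehydrogenase of lysine breakdown, read 4.79 and 4.58 in kidney and was higher by 3.30 (adjusted p 2.8e-15, limma). Liver was the only tissue above kidney for Gcdh, for 0610010D20Rik (Hoga1, of hydroxyproline breakdown; 3.30), Ahcy (the hydrolase of S-adenosylhomocysteine; 2.73), Afmid (of tryptophan breakdown; 2.56) and Grhpr (glyoxylate reductase; 2.27). Mut (methylmalonyl-CoA mutase) and Aldh9a1 had their highest mean in kidney, with differences of 2.14 and 2.98.

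Oxidative phosphorylation shifted by small amounts in many genes: 0 of 64 passed the 4-fold rule in either direction, while 42 were higher and 0 lower at an adjusted p under 0.05, with a median difference of 0.56 (limma), against 17.7% and 24% of all probes. The largest was Ndufab1, the acyl carrier subunit of complex I, at 1.52. Kidney had the highest mean of all tissues for 2 of the 64 genes and was above each other tissue for 0. Over all symbols tested these counts were 234 and 37 of 5029. With median centring the median difference of the 64 genes was 0.87. Xenobiotic enzymes went both ways, with 5 of 22 higher and 2 lower, against 3.02% and 1.15% of all symbols; on the arrays of the kidney scan day 3 were higher and 3 lower. The higher ones were Akr7a5, Ugt1a6a, Gsta3, Fmo4 and Ddt (2.04 to 2.81), and the lower ones were Cbr2, a carbonyl reductase at 4.46 in lung, and Aox1, an aldehyde oxidase.

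**Figure D4:**
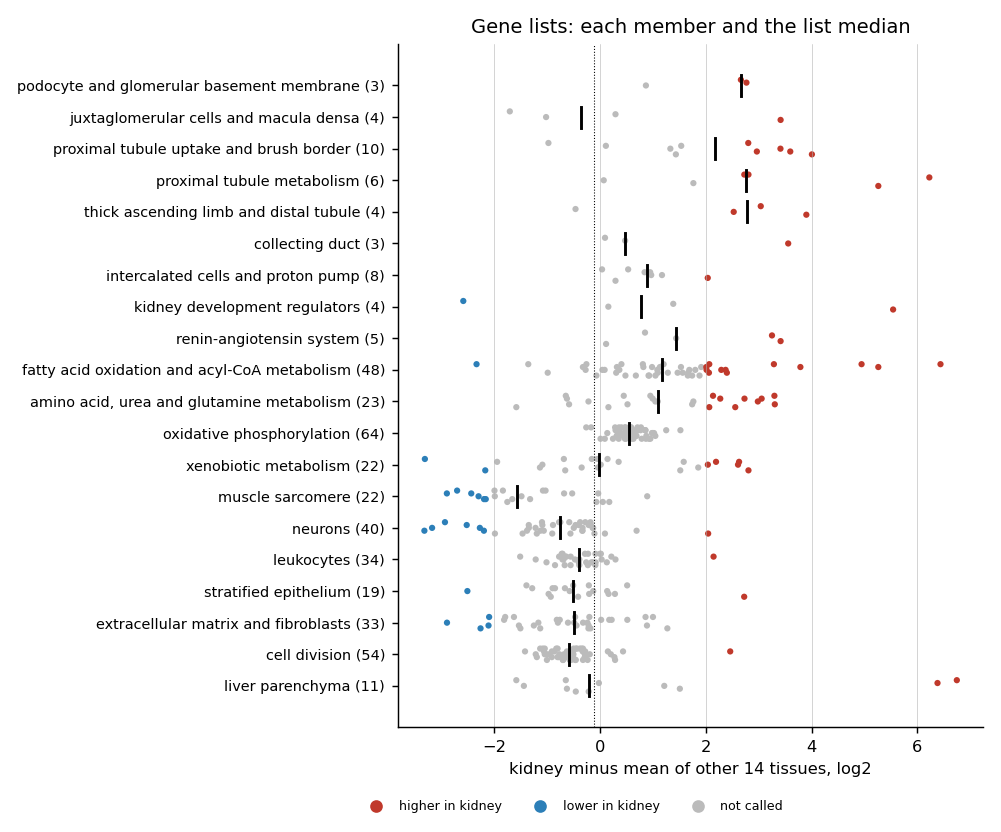
Difference of kidney from the mean of 14 other tissues on the log2 scale for each gene (point) of 20 lists, with the number of genes tested in parentheses, the list median (bar) and the median of all probes (dotted line). The highest red points are at 6.75 in the liver parenchyma list, 6.44 in the fatty acid list and 6.23 in the proximal tubule metabolism list, and the muscle, neuron and matrix lists have blue points down to -3.32.

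Liver was the tissue nearest to kidney among the higher probes. These contrasts share the kidney arrays, so their counts are given as a description. Against liver, kidney was higher by at least 1 at an adjusted p under 0.05 for 519 of the 885 probes, lower for 60 and neither for 306 (limma). Against small intestine the counts were 666, 14 and 205, against bladder 802, 3 and 80, and against bone 851, 3 and 31. Kidney had the highest mean of all tissues for 429 of the 885. For the other 456 the highest was liver in 228 (50%) and small intestine in 65, and where kidney was highest the next tissue was liver in 92 of 429 (21.45%).

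**Figure D5:**
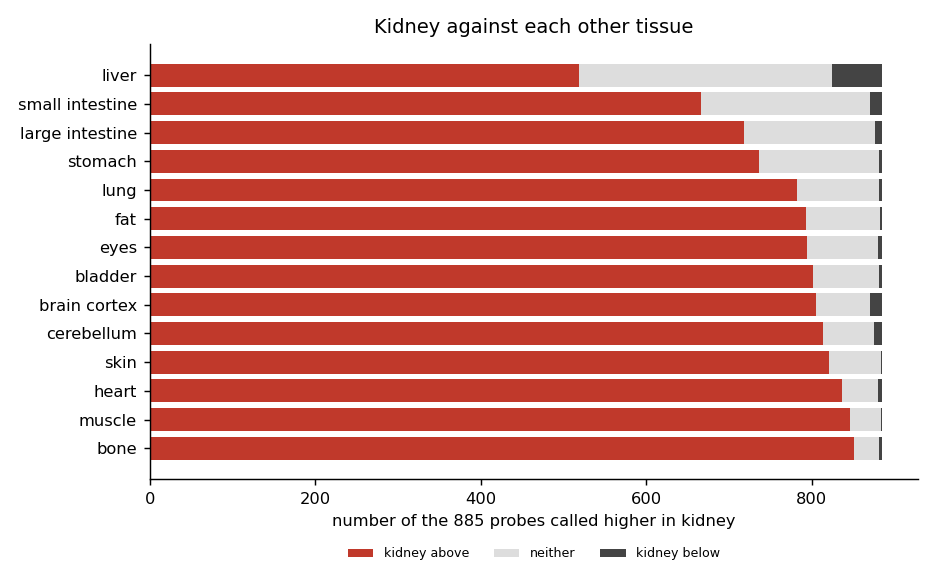
For each other tissue, how many of the 885 probes higher in kidney had kidney above that tissue by at least 1 on the log2 scale at an adjusted p under 0.05 (red), below it by as much (black) or neither (grey). Liver, at the top, has the shortest red bar (519) and bone the longest (851).

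Among 11 liver parenchyma genes, 2 were higher in kidney and 0 lower, against 3.02% and 1.15% of all symbols, and the levels of these 2 came near to those of liver. At an adjusted p under 0.05 alone 3 were higher and 4 lower, against 17.7% and 24% of all probes, and the median of the list was -0.21 (-0.62 on the arrays of the kidney scan day, and 0.04 with the processed signals). Spp2, a secreted phosphoprotein, read 7.45 and 7.43 in kidney, 8.07 on both liver arrays and from -0.21 to 1.09 on the other 26. F13b, the carrier subunit of coagulation factor XIII, read 6.68 and 7.27 in kidney, 7.95 and 7.64 in liver and -0.15 to 0.20 elsewhere. They were higher than the mean of the others by 6.75 ± 0.12 and 6.38 ± 0.12 (adjusted p 2.4e-18 and 6.6e-18, limma) and below liver by 0.63 and 0.82 (adjusted p 0.0065 and 0.00083). Defining liver genes did not share this: Serpinc1 (antithrombin) and C4bp were not well above background on either kidney array, at 0.18 and 0.32 and at -0.66 and -0.58, with liver means of 5.30 and 7.19.

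Genes above all other tissues were few. Kidney exceeded each of the 14 tissues by at least 1 on the log2 scale, every contrast at an adjusted p under 0.05, for 235 probes (1.12%), 37 of them with a symbol, and lay below each for 15 probes (0.0713%), 3 with a symbol (limma). With liver and both intestines left out of the fit these counts were 590 and 88, and on the arrays scanned on the same day as kidney, with 7 other tissues, 471 and 72; both settings ask for fewer contrasts. With slide as a random block they were 193 and 7.

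The 3 named genes below each other tissue were Ramp1, Adam23 and Aatk. Ramp1, which makes the calcitonin receptor-like receptor into a receptor for CGRP, read -0.92 and -0.83 in kidney and 0.84 to 4.40 (median 3.26) on the other 28 arrays. The groups do not overlap, and the difference was -3.75 ± 0.38 (adjusted p 2.3e-07, limma), with -2.66 against bladder. Aatk, a kinase of neurons, read 1.29 and 1.00 in kidney and 1.93 to 6.51 (median 3.64) elsewhere, a difference of -2.74. Adam23, a disintegrin of neural cells, read -2.93 and -3.09, was not well above background in kidney, and was at least 8.52-fold lower there; its second probe gave a difference of -1.85, short of a call.

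Of the 8 genes that lead among those lower in kidney, several belong to brain, eye or muscle. AI427515 (Vat1l) read -3.71 and -3.92 in kidney, was not well above background there and reached 5.13 in cerebellum; kidney was at least 14.9-fold lower (adjusted p 1.7e-06, limma), but a second probe for the same symbol gave a difference of -0.24 (adjusted p 0.069). Kif1a, the motor of axonal transport, read -2.45 and -2.41 with brain cortex at 5.46. Scg2, a secretogranin of endocrine granules, was at -0.31 and -0.29 in kidney and at 8.08 in the eyes. Kidney was at least 8.34-fold lower than the mean of the others, but the median of the other arrays was 0.32. Of those arrays, 15 were well above background. By at least 1 at an adjusted p under 0.05 (limma), kidney was below 6 other tissues for Scg2, 11 for Kif1a and 12 for AI427515. Liver was not among them: the differences from it were -0.18, -0.12 and -0.58 (adjusted p 0.87, 0.85 and 0.59). Against bladder Scg2 differed by -1.09 (adjusted p 0.15). 2300002D11Rik (Trnp1) read -1.84 and -1.75, with liver below it.

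Aox1 and Rxrg had their highest levels in liver and skeletal muscle. Aox1 read -1.56 and -1.96 in kidney and 4.83 at most, in liver. Kidney had the lowest mean of all tissues, but large intestine replicate 2, at -1.57, lay between the kidney arrays. The difference was -3.31 ± 0.26 (adjusted p 9e-09, limma) and that from bladder -4.49. Rxrg, a retinoid X receptor of muscle, read -0.32 and -0.13 in kidney and 6.71 in skeletal muscle, with small intestine about as low (-0.52 and -0.18), and differed by -3.18 ± 0.29 (adjusted p 7.3e-08).

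Markers of other cell types were mostly level or lower. Over the lists for muscle, neurons, leukocytes, stratified epithelium, and matrix and fibroblasts, 17 of 148 genes (11.5%) were lower in kidney and 3 (2.03%) higher, with a median of -0.58; over all symbols 1.15% were lower and 3.02% higher, so the share higher is near the background. Muscle sarcomere genes gave 6 of 22 lower, led by Tnnt2 (cardiac troponin T, -2.90) and Actn2 (-2.70), and neuron genes 6 of 40, led by Kif1a. These counts moved with the scaling: with median centring and with the processed signals the muscle count was 3 and 14 and the neuron count 5 and 11, and with the value table they were 14 and 10. The matrix list gave 4 of 33 lower (1 and 7 under those scalings): Prg4 (lubricin), Olfml2b, Fn1 (fibronectin) and Sulf1. These lists are high in single tissues that the mean of the others contains, so a lower value in kidney need not set kidney apart from the rest.

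The 3 exceptions were Fcgr2b, Lad1 and Ngef. Fcgr2b, the inhibitory Fc receptor, was the only higher gene of 34 leukocyte genes, at 1.47 and 1.53 in kidney and 1.67 in fat. A single gene of 34 is near the 3.02% of all symbols, and 11 of the 34 were lower at an adjusted p under 0.05, against 24% of all probes. Lad1, a basement membrane anchor of epithelia, was higher by 2.73. Kidney had the highest mean for 0 of the 19 genes of the stratified epithelium list, to which Lad1 belongs. Ngef, a guanine nucleotide exchange factor of neurons, was higher by 2.04, with brain cortex at 5.75. With slide as a random block the adjusted p of Ngef was 0.0529 (limma). Of 54 cell division genes 1 was higher (Cks2, by 2.46) and 29 were lower at an adjusted p under 0.05, against 24% of all probes, with a median of -0.59 that became -0.34 with median centring and -0.20 on the arrays of the kidney scan day. Of the markers for neighbouring fat only Fcor was named and it differed by -1.18; none of the listed adrenal, blood and ureter lining markers was named, so their part was not tested.

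Kidney against bladder, on a shared slide, gave 1020 probes higher in kidney (4.85%) and 1007 lower (4.79%). This comparison and that with the mean of the other tissues share the kidney arrays, and bladder is part of that mean, so the calls are not independent. With slide as a fixed block the counts were 1024 and 1017. Of the nephron genes, Pkhd1 (1.85) and Tcfcp2l1 (1.95) were short of 4-fold against bladder, and Vil1 (5.76), Atp1b1 (5.68), Slc23a3 (3.70) and Col4a3 (2.90) were past it.

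Promoters were in the sequence table for 123 of the genes higher and 45 of those lower in kidney, and for 3787 genes tested. In the window from 250 bases before to 50 after the start that the table uses, which need not be the outermost start of a gene, on either strand, GTTAAT occurred in 13 of 123 (10.6%), 1 of 45 (2.22%) and 177 of 3787 (4.67%), and in 7.2% of all promoters of the table. TATAAA occurred in 16 of 123 (13%), 3 of 45 (6.67%) and 7.84% of those tested, with 14.2% in the whole table. CAAAGTCCA, a form of the HNF4 site, was in 1 of 123 (0.813%), 0 of 45 and 0.211% of those tested, and TCAAGGTCA, the site of estrogen-related receptors, in 0 of 123, 1 of 45 and 0.185%. None of the 4 motifs contains another, and no test was made of these shares.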

How the data were processed

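The 30 arrays were grouped by the tissue in the labels. The authors amplified and labelled TRIzol RNA and extracted the spots (Agilent Feature Extraction 9.5.1.1). Files of spots as deposited give the mean signal and local background of each channel as an intensity in scanner units. The authors' value table, on a log10 scale, gives a Cy3 level for 25030 probes and served as the set of probes and as an alternative.

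Here the deposited intensities were background-corrected (normexp, offset 50), control and outlier spots were left out, and loess within arrays gave log2(Cy3/Cy5). Probes entered the tests if some tissue had both of its arrays well above background in Cy3 (21025 probes, 84.0% of the table; 191 single values were missing, and a missing value was left out of the fit of its probe). Models with 1 coefficient per tissue were fitted in limma 3.58.1 (R 4.3.3), with the spread pooled over tissues (15 residual degrees of freedom), two-sided tests and Benjamini-Hochberg adjustment over all probes tested. p-values measure the spread between 2 arrays per tissue, whose number limits the precision. The fit was tested on simulated data.

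Symbols came from the study's supplementary probe lists and were matched to RefSeq names. For a gene with several probes, the brightest was used. Of 90 genes (those that lead, the fixed set below and the list members called higher or lower) 6 had a second tested probe, and 1 (Ahcy) was called the same way by it. The second probes of AI427515, Abat, Acat1, Acss1 and Adam23 were not called. The named genes were the 14 with the largest differences among those called higher with both kidney arrays above all others, the 8 with the largest differences below 0 among those called lower, the genes of the lists, and a fixed set of segment genes. The genes described and the lists were chosen with earlier results of these data known. Alternatives were other background and normalization methods, the value table, filters, blocks by slide, scan day and replicate number, array weights, tissues left out, thresholds and each array left out. Restricting the fit to the arrays of the kidney scan day was added after seeing the data. 1 gene counted in the lists is not reported here.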

Additional observations from a re-analysis of the deposited data

Results flagged for a closer look

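The arrays also carry 16976 probes outside the deposited value table, which no comparison above used. Of these, 8539 (50.3%) were well above background in Cy3 on both kidney arrays, against 60.5% of the probes in the table and 1.31% of the negative controls. This is signal in data outside the main measurement.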

How the results depend on the processing

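The number of probes higher in kidney (885) moved by more than 1.5 times with the threshold alone, to 2063 at a log2 difference of 1 and 425 at 3. The number lower (439) was 953 with the processed signals, 258 with median centring, 913 with the value table, 1990 and 85 at the thresholds of 1 and 3, and 670 on the arrays of the kidney scan day, a setting chosen after seeing the data. Probes above each other tissue (235) numbered 393 over all noncontrol probes, 590 without liver and both intestines, 83 when each gap had to reach 2, 41 at 3, and 471 on the kidney scan day. Probes below each (15) numbered 35 with the processed signals, 7 with median centring, 34 with the value table, 7 with slide as a random block, 88 without liver and both intestines, 0 at both stricter thresholds and 72 on the kidney scan day. Against bladder, higher probes (1020) were 2349 and 504 at the thresholds of 1 and 3, and lower probes (1007) were 1626 with the processed signals, 1607 with the value table, and 2489 and 423 at those thresholds. The 17 nephron list genes called higher became 9 at a threshold of 3. The 17 genes of other cell types called lower became 35 with the processed signals, 10 with median centring, 33 with the value table, and 50 and 2 at the thresholds of 1 and 3. The cause was not tested.

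Leaving out 1 array at a time gave 868 to 897 higher and 422 to 453 lower probes, 223 to 261 above and 11 to 19 below each other tissue, 972 to 1029 and 978 to 1048 against bladder, and 16 to 18 and 17 to 20 genes of the nephron and other cell lists. With the replicate block the counts were 885, 439, 239, 15, 1023, 1010, 17 and 17. Over 105 pairs of tissues the deviations of same-numbered arrays correlated at -0.248 to 0.343 (median 0.0479), and 32 pairs lay above 0.1. The pairs with kidney ran from -0.248 to 0.288. Whether same-numbered arrays came from the same animal was not tested, and correlations over so few arrays per tissue cannot decide it.

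Over 109 genes (the leading genes, the fixed set, the list members called, and all members of the nephron, renin-angiotensin and development lists), 1500 of 1524 values under the alternatives kept their direction and their side of the adjusted p threshold, 10 lost it, 14 gained it and 0 reversed; of 3270 values with 1 array left out, 6 lost it and 15 gained it. With slide as a random block, Abcb1a, Abcc4, Ace, Actn3, Atp6v1e1, Atp6v1h, Ngef and Pappa2 lost it, and Actn3 (adjusted p 0.0948, limma) and Ngef had been called. No scaling gave a probe called in kidney the opposite call, and no scaling moved the median of all probes by over 0.06. Dim probes limit the differences, since the offset draws their ratios towards 0.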
